A study of Mus musculus with 16 samples.

Results

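Corticosterone, the main glucocorticoid of mice, acts through 2 nuclear receptors, and the 10 genes described here are these receptors, 3 genes that set how much hormone they see or bind, and 5 genes known to be switched on when they bind DNA. The genes were chosen by symbol, with earlier results of these data known. All 10 were found among the 24060 rows of each library's table. Their levels were read in RNA of mouse somatosensory cortex. The animals were Aldh1l1-cre/ERT2 x RiboTag mice, in which tamoxifen leads to an HA-tagged copy of a ribosomal protein in cells where the Aldh1l1 promoter is active, here astrocytes. Antibody against HA then pulls out ribosomes with their mRNA (IP), while INPUT is RNA of the whole cleared lysate. All 4 groups had this genotype (C57BL/6J background) and tamoxifen at 2 months, and were used at 3 months of age. Naïve IP and naïve INPUT came from mice left in the home cage, and stress IP and stress INPUT from mice that swam for 20 min and then recovered for 90 min, with 4 libraries of each kind. The study used both sexes. The sex of each library and the IP and INPUT of the same mouse were not used, as the labels do not give them. Only an alternative fit took the level of Xist in each library as a covariate. The sample labels place the experiment 4 weeks after tamoxifen, whereas the methods give a shorter interval.

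Without hormone the receptors sit in the cytoplasm in a complex of chaperones and immunophilins. Hormone binding sends them to the nucleus, where they occupy DNA elements made of a pair of inverted 6-base repeats and raise or lower the transcription of nearby genes within minutes to hours. Astrocytes are known to carry both receptors and to respond strongly to corticosterone. Nr3c1 encodes the glucocorticoid receptor and Nr3c2 the mineralocorticoid receptor. Hsd11b1 encodes the enzyme that regenerates active hormone inside cells. Fkbp4 and Fkbp5 encode competing immunophilins of the receptor complex, the first favouring receptor transport and the second lowering hormone affinity. Fkbp5 is itself a target, as are Tsc22d3 (GILZ, a transcriptional regulator with anti-inflammatory actions), Sgk1 (a kinase that acts on ion transport), Errfi1 (an inhibitor of the EGF receptor), Zbtb16 (the zinc finger repressor PLZF) and Plin4 (a protein of the lipid droplet coat).

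Receptor binding elements near the gene starts were looked for in RefSeq promoter windows of 300 bases (250 before and 50 after each transcription start, GRCm38.p6), which held 16 windows for 8 of the 10 genes. Nr3c1 and Zbtb16 were not matched. The motif searched was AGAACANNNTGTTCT, the inverted pair of 6-base repeats, which reads the same on both strands. It was found in 3 of 32851 windows (0.00913%), and within 1 mismatch in 54 windows (0.164%). A single repeat, AGAACA or TGTTCT, was in 19.0% of all windows and in 4 of the 16 windows of these genes. One of the 3 exact pairs lies in a window of Sgk1 (1 of its 6 annotated starts), from 189 to 175 bases before the start, at chr10:21993701-21993715. The window is shown because it is the only one of the 16 with the pair, and the repeats of the pair are in capitals. It holds 3 repeats in all, and the one outside the pair, TGTTCT near the 5′ end, is left in lower case. The second sequence is the Tsc22d3 window with a single repeat (1 of 3 starts), shown because Tsc22d3 is the gene of the 10 that passed the test after stress in IP, and the repeat in capitals begins 185 bases before the start.
Sgk1, chr10:21993640-21993939, plus strand: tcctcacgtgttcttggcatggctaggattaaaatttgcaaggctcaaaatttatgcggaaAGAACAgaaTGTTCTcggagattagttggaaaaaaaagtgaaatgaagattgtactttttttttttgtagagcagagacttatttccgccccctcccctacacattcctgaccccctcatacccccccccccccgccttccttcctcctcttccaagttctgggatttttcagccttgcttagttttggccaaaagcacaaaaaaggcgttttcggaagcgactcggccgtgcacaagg
Tsc22d3, chrX:140600473-140600772, minus strand: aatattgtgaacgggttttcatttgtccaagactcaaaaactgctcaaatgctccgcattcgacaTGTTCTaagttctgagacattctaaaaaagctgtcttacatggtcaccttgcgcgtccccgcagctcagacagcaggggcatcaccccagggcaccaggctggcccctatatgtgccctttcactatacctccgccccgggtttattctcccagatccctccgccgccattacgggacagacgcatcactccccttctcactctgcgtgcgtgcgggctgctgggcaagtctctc
No repeat was found in the windows of Nr3c2, Hsd11b1, Fkbp4, Fkbp5, Errfi1 or Plin4. Matches are a description of these letters only, and elements outside the windows were not searched.

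On GRCm38 (mm10) with GENCODE M21, the receptor genes lie at chr18:39410545-39519421 (Nr3c1, minus strand) and chr8:76899442-77245012 (Nr3c2, plus strand). Hsd11b1 is at chr1:193221634-193264075, Fkbp4 at chr6:128429735-128438677 and Fkbp5 at chr17:28399094-28517527, all on the minus strand. The other targets are Tsc22d3 at chrX:140539528-140600659 (minus), Sgk1 at chr10:21882184-21999903 (plus), Errfi1 at chr4:150853919-150868892 (plus), Zbtb16 at chr9:48654297-48836222 (minus) and Plin4 at chr17:56100591-56109803 (minus). Exons of Plin4 overlap exons of the protein-coding gene Hdgfl2 on the opposite strand, and exons of Nr3c2 overlap the non-coding gene Gm10649 on the opposite strand. The strand setting of the counting is not given in the sources used here, so reads of these pairs may have been shared and the levels of Plin4 and Nr3c2 are uncertain to that extent.

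Levels are given as CPM, the reads counted on a gene per 1000000 reads counted on all genes of the library. Libraries held 16392876 to 25814364 such reads, and the 10 genes had between 64 (Plin4) and 16232 (Tsc22d3) reads in a library, so that a level of 0 was met for none of them. The summed level of 5 astrocyte markers (Aldh1l1, Slc1a2, Gja1, Kcnj10 and Aqp4) was 71748 to 82720 CPM in IP and 3800 to 4702 CPM in INPUT. All 5 were higher in IP than in INPUT in both conditions. Of the markers of other cells, 5 of 5 for neurons, 5 of 5 for oligodendrocytes, 5 of 5 for microglia and 4 of 4 tested for endothelium were lower in naïve IP than in naïve INPUT, and of 3 mural cell markers tested 1 was higher and 2 were lower. Their summed levels in IP were 328 to 538 CPM for neurons and 6.63 to 12.4 CPM for endothelium, and Icam2 was the only marker at 0 reads in some IP libraries. In these bulk samples, fewer cells of a type and less RNA per cell cannot be told apart. Naïve IP 11 and naïve INPUT 14 stand apart from the other naïve libraries in most of the targets, and results that rest on them are given with and without them. They were singled out for these high levels, so leaving them out raises the stress differences of the same genes by construction, and values without them are given as a description and support nothing.

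**Figure D1:**
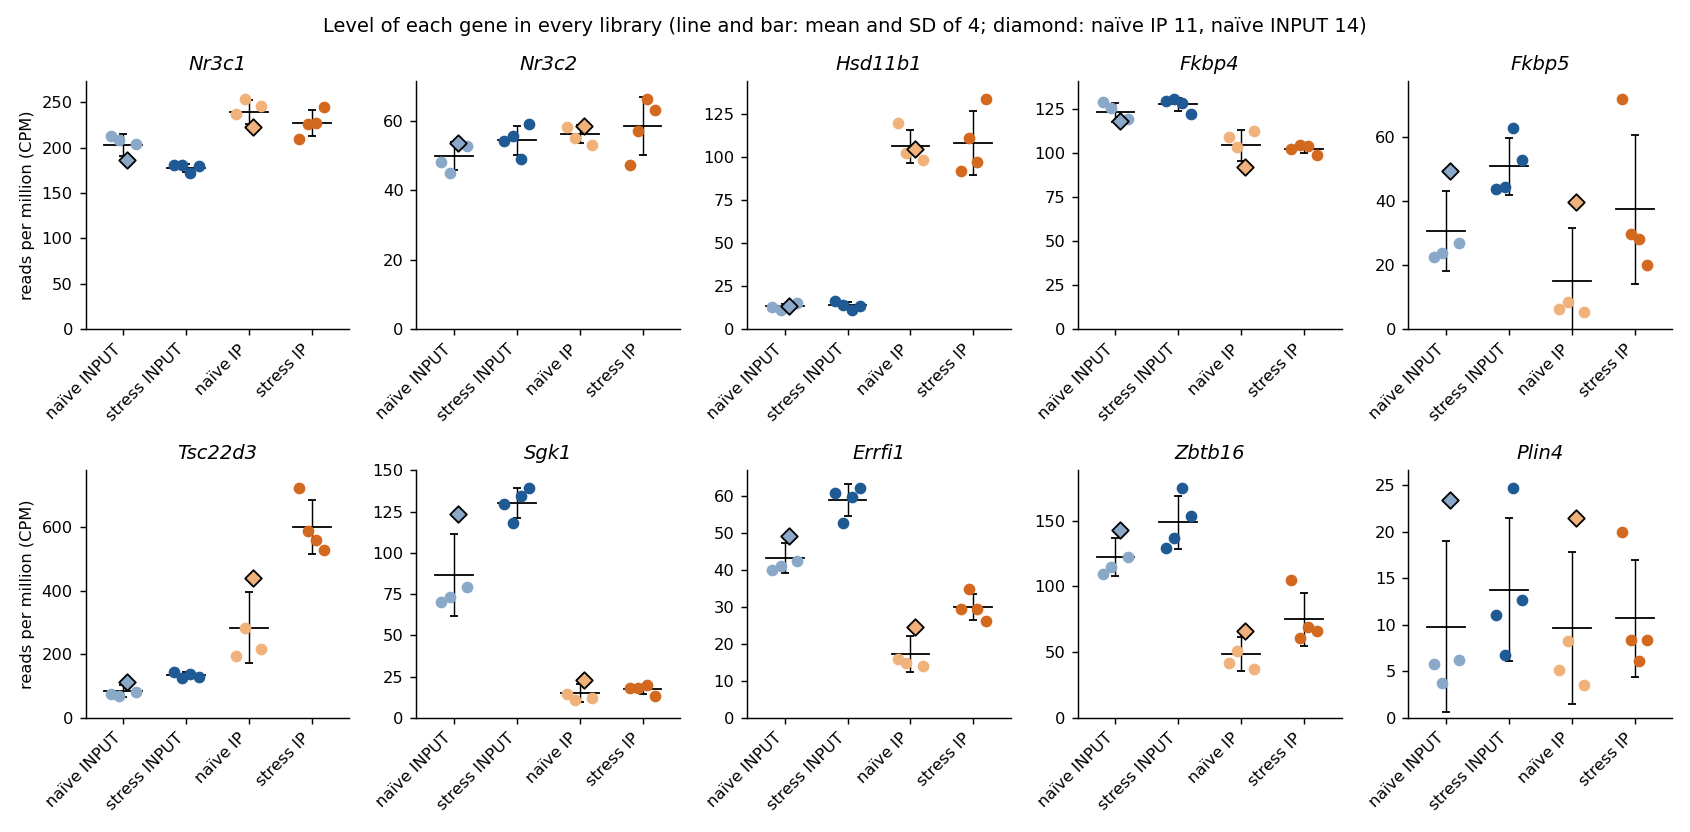
CPM (linear axis from 0) of the 10 genes in each of the 16 libraries, by group, with the mean and SD of 4 as a line and a bar (clipped at 0) and with naïve IP 11 and naïve INPUT 14 as diamonds. Hsd11b1 and Tsc22d3 are higher in IP, Sgk1, Errfi1 and Zbtb16 are lower in IP, and the diamonds are the highest naïve points for Fkbp5, Tsc22d3, Sgk1, Errfi1, Zbtb16 and Plin4.

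To compare genes, levels were divided by the joined length of all exons of a gene in GENCODE M21. Reads were counted on RefSeq genes and the transcripts in use are not known, so the orders below depend on these lengths. Per kilobase of exon, Tsc22d3 had the highest level of the 10 in astrocyte ribosome-bound RNA. It was at 65.5 ± 25.7 CPM per kb among naïve and 138 ± 19.7 among stress libraries (SD, n = 4). In naïve IP it was followed by Fkbp4 (37.4 ± 3.17), Nr3c1 (31.1 ± 1.71) and Hsd11b1 (24.9 ± 2.20 CPM per kb). The ranges of these 4 neighbours in the order did not overlap, though Fkbp4 and Nr3c1 nearly touched (33.05 against 32.92 CPM per kb). Zbtb16 (9.23 ± 2.43) and Nr3c2 (8.70 ± 0.405) came next and overlapped each other. The lowest levels were those of Errfi1 (4.83 ± 1.36), Sgk1 (3.06 ± 1.13), Plin4 (1.67 ± 1.41) and Fkbp5 (1.59 ± 1.75 CPM per kb), each of which overlapped its neighbour. The glucocorticoid receptor thus stood above the mineralocorticoid receptor in every group, and per kb Nr3c1 was at 26.4 ± 1.53 against 7.72 ± 0.629 for Nr3c2 in naïve INPUT.

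In INPUT the order was another one. Fkbp4 led in both groups, with 44.1 ± 1.87 CPM per kb in naïve and 45.8 ± 1.34 in stress INPUT. In naïve INPUT, Nr3c1 (26.4 ± 1.53), Zbtb16 (23.2 ± 2.77), Tsc22d3 (19.4 ± 4.62) and Sgk1 (17.6 ± 5.09 CPM per kb) followed, each overlapping the next. Stress INPUT placed Tsc22d3 (30.9 ± 2.04), Zbtb16 (28.1 ± 3.80) and Sgk1 (26.6 ± 1.85) above Nr3c1 (23.1 ± 0.562 CPM per kb), and the ranges of Sgk1 and Nr3c1 were apart there. Hsd11b1, next after Nr3c1 in both IP groups, was above only Plin4 in both INPUT groups, at 3.09 ± 0.394 and 3.23 ± 0.495 CPM per kb.

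The first comparison asks which of these genes are represented more in astrocyte ribosome-bound RNA than in the whole tissue. Values below are in the order naïve IP 2, 8, 11 and 13, stress IP 4, 5, 6 and 15, naïve INPUT 3, 7, 14 and 16, and stress INPUT 1, 9, 10 and 12. IP over INPUT was tested with limma on log2(CPM + 0.1) over 13339 genes in naïve and 13333 in stressed mice, and calls are Benjamini-Hochberg adjusted p under 0.05. Of the 10 genes, 4 were higher and 5 lower in naïve IP, where 23.7% of all genes were called higher and 64% lower. In stressed mice 3 were higher and 4 lower, beside 23.6% and 62.5% of all genes. These shares of the 10 are near the background, and the statements that follow are about single genes. The median of all genes was −0.64 in naïve and −0.63 in stressed mice on the log2 scale, and the 10 most abundant genes made up 19.1% of a naïve IP library and 3.78% of a naïve INPUT library. Rescaling each library by the median ratio to the others removes that shift and gives 5589 genes higher and 5642 lower in naïve mice, in place of 3158 and 8540, and 5446 and 5524 in place of 3143 and 8332 in stressed mice.

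Hsd11b1 was the most IP-enriched of the 10. Its CPM was 119, 102, 105 and 97.9 in naïve IP and 12.9, 11.0, 13.7 and 15.0 in naïve INPUT. Stressed mice had 91.5, 111, 96.8 and 133 in IP and 16.5, 13.8, 11.4 and 13.3 in INPUT. Each IP library lay above each INPUT library, 8.07-fold in mean CPM in naïve and 7.87-fold in stressed mice. The log2 fold changes were 3.01 (SE 0.096, limma adjusted p = 2.00e-12) and 2.96 (SE 0.13, limma adjusted p = 2.53e-10). Of 7 other genes of steroid supply, 6 had a mean above 1 CPM, of which 1 was higher and 3 were lower in naïve IP (23.7% and 64% of all genes). Hsd11b2, which inactivates corticosterone in the kidney, was the listed gene below that limit and is named because of its low value.

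Tsc22d3 was also enriched in IP. Its CPM in naïve mice was 195, 282, 442 and 218 in IP and 74.4, 68.5, 113 and 80.3 in INPUT. After stress it was 724, 589.9, 561 and 529 in IP and 145, 126, 138 and 128 in INPUT. IP libraries were all above INPUT libraries of the same condition, 3.38-fold in naïve (log2 1.71, SE 0.21, limma adjusted p = 4.75e-06) and 4.48-fold in stressed mice (log2 2.15, SE 0.091, limma adjusted p = 1.71e-10). Without naïve IP 11 the naïve log2 fold change was 1.47 (limma adjusted p = 5.65e-07). Among the paralogs of the TSC22 family the highest level per kb belonged to Tsc22d1, which went the other way, at 14.0 ± 1.21 CPM per kb in naïve IP and 39.8 ± 2.69 in naïve INPUT (log2 −1.51, limma adjusted p = 9.23e-11).

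The log2 differences of the receptors between the fractions were small on the CPM scale and larger once the shift of all genes was removed. Nr3c1 had 237, 253, 222 and 245 CPM in naïve IP and 213, 209, 186 and 204 in naïve INPUT. The groups did not overlap, and the log2 fold change was 0.24 (SE 0.059, limma adjusted p = 0.0018), or 0.35 (SE 0.059, limma adjusted p = 0.00011) in stressed mice. Nr3c2 had 58.4, 55.0, 58.6 and 53.2 CPM in naïve IP and 48.2, 45.1, 53.8 and 52.8 in naïve INPUT, which overlap. Its log2 fold change was 0.17 (SE 0.070, limma adjusted p = 0.032) in naïve mice, and 0.093 (SE 0.10, limma adjusted p = 0.40) in stressed mice. The naïve call for Nr3c2 was lost in 8 alternatives, among them the fit without naïve IP 11 (limma adjusted p = 0.066). After rescaling by the median ratio the naïve log2 fold changes were 0.88 for Nr3c1 and 0.81 for Nr3c2, and in stressed mice 0.98 and 0.72, all past the threshold. Pgr, the related steroid receptor with the highest level per kb in the list, was at 1.82 ± 0.404 CPM per kb in naïve IP and 6.89 ± 0.128 in naïve INPUT.

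Fkbp4 was slightly lower in IP. It had 109, 104, 92.4 and 113 CPM in naïve IP and 129, 126, 118 and 119.5 in naïve INPUT. In stressed mice the values were 103, 105, 104 and 99.0 in IP and 129.9, 131, 129 and 122 in INPUT. The groups were apart in both conditions, with log2 fold changes of −0.24 (SE 0.066, limma adjusted p = 0.0038) and −0.32 (SE 0.053, limma adjusted p = 0.00011). Being lower on CPM but above the median of all genes, Fkbp4 changed direction when libraries were rescaled by the median ratio, to 0.40 in naïve and 0.31 in stressed mice. Fkbp1a, the FKBP paralog with the highest level per kb, was further down in IP (log2 −2.39, limma adjusted p = 4.51e-13, in naïve mice).

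Sgk1, Errfi1 and Zbtb16 were lower in IP than in INPUT in both conditions. Sgk1 had 14.4, 10.8, 23.0 and 11.9 CPM in naïve IP against 70.3, 73.0, 123 and 79.3 in naïve INPUT, and 18.0, 17.9, 19.8 and 13.4 in stress IP against 129.6, 118, 134 and 139 in stress INPUT. INPUT was 5.76-fold higher in naïve mice (log2 −2.54, SE 0.22, limma adjusted p = 8.42e-08) and 7.55-fold higher in stressed mice (log2 −2.92, SE 0.11, limma adjusted p = 5.23e-11). Its paralog Sgk3 was the other way round, at 1.34 ± 0.203 CPM per kb in naïve IP and 0.919 ± 0.0395 in naïve INPUT (log2 0.53, limma adjusted p = 0.00027). Errfi1 had a log2 fold change of −1.35 (SE 0.15, limma adjusted p = 1.14e-06) in naïve and −0.98 (SE 0.092, limma adjusted p = 4.88e-07) in stressed mice. For Zbtb16 the same values were −1.36 (SE 0.15, limma adjusted p = 1.03e-06) and −1.01 (SE 0.15, limma adjusted p = 4.07e-05). All 3 genes kept their direction and their call under both rescalings in both conditions.

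Fkbp5 and Plin4 varied most between libraries of a group. Fkbp5 was lower in naïve IP (log2 −1.48, SE 0.49, limma adjusted p = 0.012) although naïve IP 11 lay within the INPUT range, and without naïve IP 11 the log2 fold change was −2.12 (SE 0.23, limma adjusted p = 1.04e-06). The naïve call was lost under the median ratio (log2 −0.84, limma adjusted p = 0.14), quantile normalization and the fit with no filter. In stressed mice the fold change of Fkbp5 was −0.60 (SE 0.30, limma adjusted p = 0.076), and without stress IP 4 it was −0.97 (limma adjusted p = 0.00014). Stress IP 4 had the highest Fkbp5 of the stress IP libraries, so leaving it out widens this difference by construction and supports nothing. The fold change passed with array weights (limma adjusted p = 0.031) and with Xist as a covariate (limma adjusted p = 0.024). Under the median ratio it was 0.025 (limma adjusted p = 0.94). Plin4 was at 0.0086 (SE 0.55) in naïve and −0.36 (SE 0.38) in stressed mice on the log2 scale, with limma adjusted p = 0.99 and 0.39 and a 95% interval in naïve mice from −1.19 to 1.20. Plin3, the perilipin with the highest level per kb, was at 14.7 ± 1.47 CPM per kb in naïve IP and 2.53 ± 0.432 in naïve INPUT (log2 2.54, limma adjusted p = 1.08e-10).

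**Figure D2:**
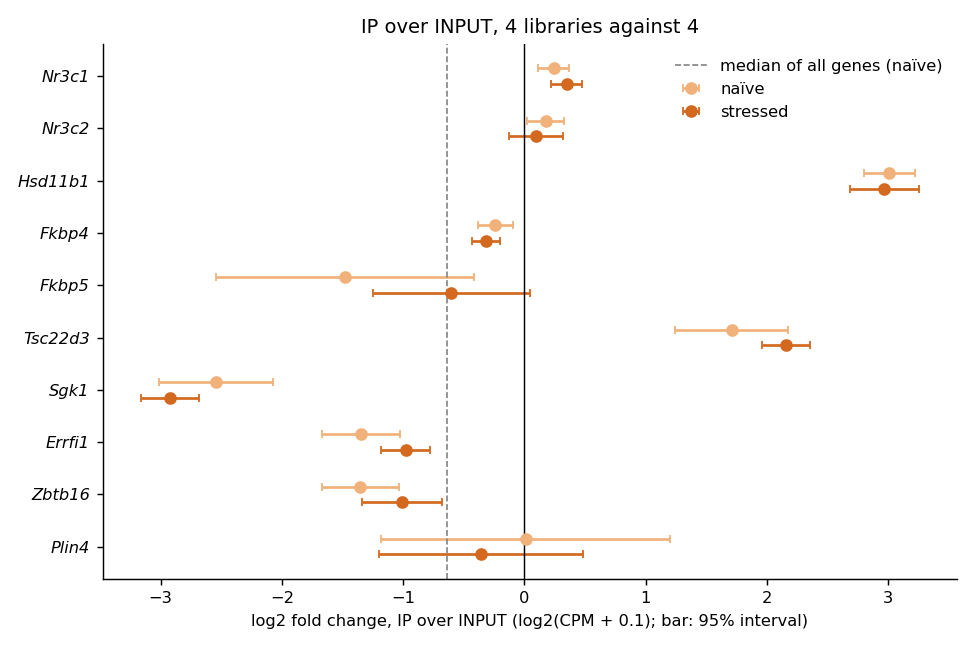
Log2 fold change of IP over INPUT with its 95% interval for the 10 genes in naïve and in stressed mice, with the median of all genes in naïve mice as a dashed line. Hsd11b1 lies near 3, Tsc22d3 near 2, Nr3c1, Nr3c2 and Fkbp4 between the dashed line and 1, and Sgk1 below −2.

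The second comparison asks what a swim did to these genes in astrocyte ribosome-bound RNA. Stress over naïve in IP was tested over 12501 genes. Of the 10 genes 1, Tsc22d3, was called higher and 0 lower, beside 0.216% of all genes called higher and 0.224% lower. Tsc22d3 and Errfi1 had all stress IP libraries above all naïve IP libraries, as 2.38% of all genes did, and 0 of the 10 had all of them below, as 2.62% of all genes did. At an unadjusted limma p under 0.05 there were 4 of the 10 genes (Fkbp5, Tsc22d3, Errfi1 and Zbtb16) and 1034 of all genes. The median log2 fold change was 0.29 over the 10 and −0.0036 over all genes. The 10 were chosen with earlier results of these data known, so these counts and this median are not independent evidence.

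Tsc22d3 rose 2.11-fold in mean CPM, from 285 ± 111 to 601 ± 85.5 (SD, n = 4). The log2 fold change was 1.14 (SE 0.21, 95% interval 0.69 to 1.59, limma adjusted p = 0.039), and the two-sided exact permutation p was 0.029, the smallest that 4 against 4 libraries allow. The lowest stress library (529 CPM) was above naïve IP 11 (442 CPM), and the other naïve libraries were at most 282 CPM. Without naïve IP 11 the log2 fold change was 1.38 (limma adjusted p = 0.00029). The call did not hold without naïve IP 2, 8 or 13 or stress IP 4, 5 or 6 (limma adjusted p between 0.11 and 0.15), where the log2 fold change stayed between 0.99 and 1.17. It was also lost with no filter (limma adjusted p = 0.47), median ratio rescaling (0.063), quantile normalization (0.059) and a variance without trend (0.17), with log2 fold changes of 1.13 to 1.14.

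Errfi1 had 16.0, 14.8, 24.5 and 13.9 CPM in naïve IP and 29.3, 34.8, 29.3 and 26.2 in stress IP. The groups did not overlap, yet the difference of 0.82 on the log2 scale (SE 0.16) had a limma adjusted p of 0.054, with an exact permutation p of 0.029. It was past the threshold without naïve IP 11 (log2 1.00, limma adjusted p = 0.00064), without stress IP 15 (limma adjusted p = 0.030), with array weights and with all 16 libraries in one model. Endothelial markers, summed over 5 genes, were at 8.69 to 12.4 CPM in naïve IP and 6.63 to 8.68 in stress IP. These ranges nearly touched (8.689 against 8.678 CPM), and those of Flt1, the marker with the highest level, overlapped. None of the 2 markers tested was called. The part of endothelial cells in the stress results was not tested.

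Fkbp5 showed the widest spread. Its CPM was 6.36, 8.55, 39.8 and 5.31 in naïve IP and 71.8, 29.7, 28.2 and 20.1 in stress IP. Naïve IP 11 was 5.91 times the mean of the other naïve libraries and above 3 of the 4 stress libraries. With it, the log2 fold change was 1.67 (SE 0.55, 95% interval 0.45 to 2.88, limma adjusted p = 0.40, exact permutation p = 0.11). Without it, the fold change was 2.31 (SE 0.34, limma adjusted p = 0.0049), and the mean over the stress libraries was 5.55 times that of the remaining 3 naïve libraries.

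Zbtb16 had 41.4, 51.0, 65.8 and 36.8 CPM in naïve IP and 105, 60.4, 69.2 and 66.1 in stress IP. Naïve IP 11 lay inside the stress range. The log2 difference was 0.62 (SE 0.19, limma adjusted p = 0.32, exact permutation p = 0.057), and 0.78 (limma adjusted p = 0.064) without naïve IP 11. Sgk1 and Plin4 overlapped widely between the groups, with naïve IP 11 above each stress library for both. Their log2 differences were 0.25 (SE 0.21, 95% interval −0.20 to 0.70, limma adjusted p = 0.80) and 0.34 (SE 0.48, 95% interval −0.72 to 1.40, limma adjusted p = 0.90). Plin4 had 5.19, 8.29, 21.5 and 3.53 CPM in naïve IP and 20.0, 8.33, 6.16 and 8.32 in stress IP, so a single library in each group was above the rest.

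For the receptors, Hsd11b1 and Fkbp4 the differences in IP were small, and the intervals bound them. Nr3c1 was at 239 ± 13.1 CPM in naïve and 227 ± 14.3 in stress IP (log2 −0.078, 95% interval −0.21 to 0.058), and Nr3c2 at 56.3 ± 2.62 and 58.5 ± 8.34 (log2 0.045, 95% interval −0.16 to 0.25). For Hsd11b1 the difference was 0.018 (95% interval −0.22 to 0.25) and for Fkbp4 −0.022 (95% interval −0.17 to 0.12). Limma adjusted p ranged from 0.79 to 0.98 over these 4 genes, and the groups overlapped for each.

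The same swim was then read in whole-cortex RNA. Stress over naïve in INPUT was tested over 13577 genes, of which 0.0368% were called higher and 0.00737% lower. None of the 10 genes was called by limma, 6 of them had an unadjusted p under 0.05 (683 of all genes did), and limma-voom on the recovered reads also called 0. Stress libraries lay above all naïve libraries for 2 genes, Tsc22d3 and Errfi1, and below them for 1, Nr3c1, where 1.43% and 1.44% of all genes did so. The median log2 fold change was 0.36 over the 10 and −0.0025 over all genes. As in IP, the choice of the 10 keeps these counts and this median from being independent evidence.

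Tsc22d3 was at 84.1 ± 20.1 CPM in naïve and 134 ± 8.85 in stress INPUT, a log2 difference of 0.70 (SE 0.12, 95% interval 0.44 to 0.96, limma adjusted p = 0.084, exact permutation p = 0.029). Errfi1 had 40.0, 41.2, 49.1 and 42.3 CPM in naïve and 60.9, 52.6, 59.8 and 62.1 in stress INPUT (log2 0.45, SE 0.078, limma adjusted p = 0.084). The groups of both genes did not overlap even with naïve INPUT 14, the highest naïve library for each. Sgk1, the kinase whose window holds the exact pair of repeats, had 70.3, 73.0, 123 and 79.3 CPM in naïve and 129.6, 118, 134 and 139 in stress INPUT. Naïve INPUT 14 fell in the stress range, and the log2 difference was 0.63 (SE 0.14, limma adjusted p = 0.20, exact permutation p = 0.057).

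Fkbp5 in INPUT had 22.5, 23.9, 49.3 and 27.1 CPM in naïve and 43.7, 44.3, 62.7 and 53.0 in stress libraries. Here too only naïve INPUT 14 reached the stress range, and the log2 difference was 0.79 (SE 0.20, limma adjusted p = 0.36, exact permutation p = 0.086). Zbtb16 had 109.5, 115, 143 and 123 CPM in naïve and 129, 137, 175 and 153 in stress INPUT (log2 0.28, SE 0.096, limma adjusted p = 0.79). Plin4 ranged from 3.77 to 23.4 CPM in naïve and from 6.79 to 24.7 in stress INPUT, a 6.22-fold spread within the naïve group, and its difference was 0.71 (SE 0.47, limma adjusted p = 0.99).

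Without naïve INPUT 14, 4 of the 10 genes had a higher call (0.199% of all genes), a count that the choice of the library favours. These were Fkbp5 (log2 1.04, limma adjusted p = 0.0021), Tsc22d3 (0.85, adjusted p = 0.00022), Sgk1 (0.81, adjusted p = 0.00022) and Errfi1 (0.51, adjusted p = 0.011), all from limma. In IP, leaving out naïve IP 11 gave 3 of the 10 called higher (Fkbp5, Tsc22d3 and Errfi1; 0.608% of all genes), and the same holds for that count. Neither share is read against the background. The plot of stress effects with and without these libraries shows the change for each gene.

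**Figure D3:**
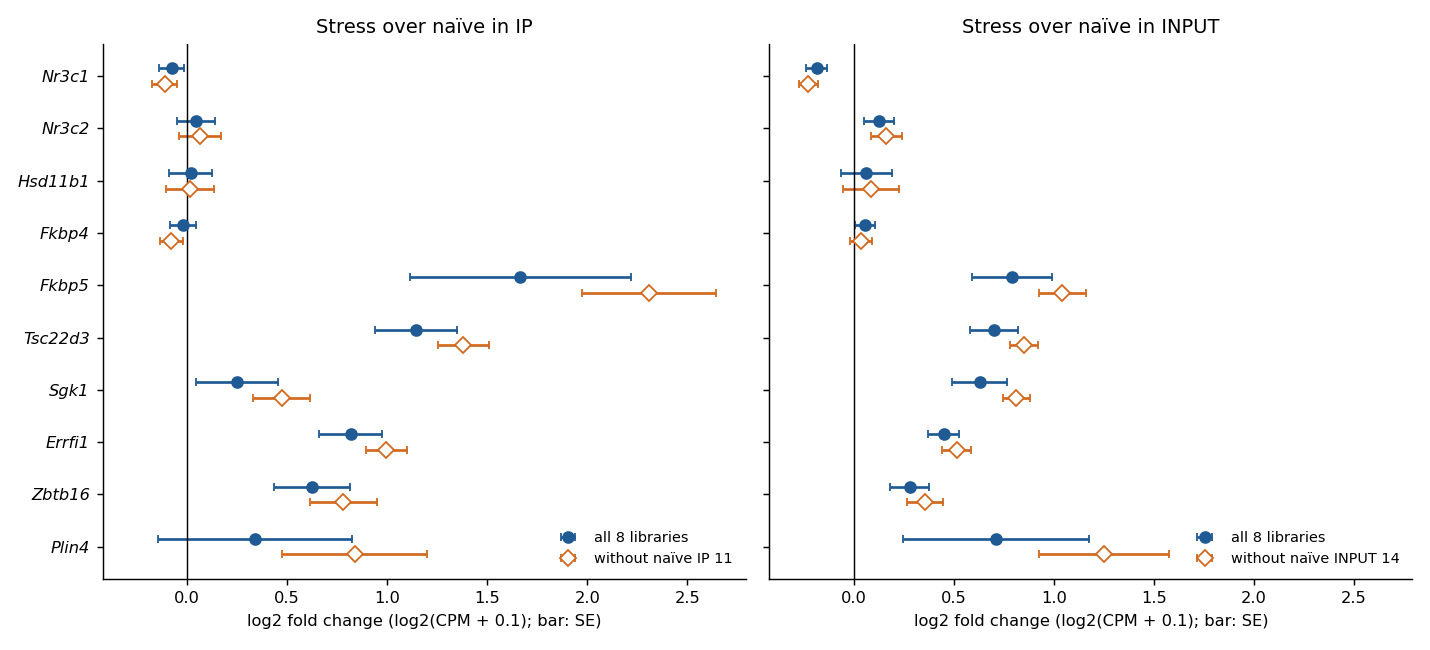
Log2 fold change of stress over naïve with its SE in IP (left) and INPUT (right), from all 8 libraries (filled circles) and without naïve IP 11 or naïve INPUT 14 (open diamonds). The 6 targets lie right of 0 in both fractions and move further right without these libraries, while Nr3c1, Nr3c2, Hsd11b1 and Fkbp4 stay within 0.25 of 0.

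Nr3c1 was lower in each stress INPUT library than in each naïve one, although the difference did not pass the adjusted test. The values were 213, 209, 186 and 204 CPM in naïve and 180.2, 180.5, 171 and 179 in stress INPUT, with 203 ± 11.8 against 178 ± 4.32 as means (SD, n = 4). The log2 difference was −0.19 (SE 0.053, 95% interval −0.30 to −0.073, exact permutation p = 0.029), with a limma adjusted p of 0.49. Nr3c2 differed by 0.13 (SE 0.076, limma adjusted p = 0.99), Hsd11b1 by 0.061 (SE 0.13) and Fkbp4 by 0.054 (SE 0.052), all with overlapping groups. The test of the difference itself between the stress effects in IP and INPUT called 0 of the 10 genes and 0.0225% of all genes. With limma no member had an unadjusted p under 0.05 there (629 of all genes did), and the closest were Errfi1 (log2 0.37, SE 0.19) and Tsc22d3 (0.44, SE 0.27). The effects in IP and INPUT are therefore not shown to differ for any of the 10. With naïve IP 11 and naïve INPUT 14 both left out there were again 0 calls among the 10. An unadjusted limma p under 0.05 was then met by 3 of the 10 and by 772 of all 13334 genes. The 3 were Errfi1 (log2 0.48, SE 0.13, adjusted p = 0.30), Tsc22d3 (0.53, SE 0.16, adjusted p = 0.50) and Fkbp5 (1.27, SE 0.41, adjusted p = 0.55). Both libraries were singled out for their levels of these genes, so this count is a description and supports no difference between the fractions. For Sgk1 the difference with all libraries was −0.38 with a 95% interval from −0.96 to 0.20.

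Naïve IP 11 was the highest of the 4 naïve IP libraries for 7 of the 10 genes and the lowest for 2. Beside this it was the highest for 21.0% and the lowest for 41.6% of all 12512 genes with a mean above 1 CPM there. For naïve INPUT 14 the counts were 7 highest and 2 lowest of the 10, beside 30.3% and 30.1% of 13590 genes. In both libraries the 7 were the 6 targets and Nr3c2, and the 2 were Nr3c1 and Fkbp4. For Nr3c2 naïve IP 11 was barely above the next library (58.6 against 58.4 CPM). Both libraries were singled out for their levels in these genes, so the contrast with all genes follows from that choice. Naïve IP 11 was 3.79 times the mean of the other 3 for Plin4, 1.91 times for Tsc22d3, 1.86 times for Sgk1, 1.64 times for Errfi1 and 1.53 times for Zbtb16. Naïve INPUT 14 was 4.46 times the others for Plin4, 2.01 times for Fkbp5, 1.66 times for Sgk1, 1.52 times for Tsc22d3, 1.23 times for Zbtb16 and 1.19 times for Errfi1. The labels do not say whether both libraries are of 1 animal. Summed astrocyte markers in naïve IP 11 (77854 CPM) lay within the range of the other naïve IP libraries (73874 to 78965 CPM). Slc1a2 made up most of that sum (70368 ± 2002 CPM in naïve IP). Summed mural markers of naïve IP 11 were the highest of the naïve IP libraries (200.6 CPM against 151 to 165 CPM). Its oligodendrocyte markers were the lowest (120.2 CPM against 152 to 169.9 CPM). Most of the mural sum in IP was Pdgfrb, which averaged 132 CPM over naïve IP libraries but only 25.4 over naïve INPUT libraries. Rgs5, Vtn and Acta2, the rest of the mural list, had lower means in IP than in INPUT. Whether the mural sum in IP reflects mural cells was not tested. Naïve INPUT 14 shares the target pattern. Its mural markers (109 CPM against 116 to 132 CPM) and endothelial markers (45.1 CPM against 63.5 to 70.8 CPM) were the lowest of the naïve INPUT libraries. So were its astrocyte markers (4305 CPM against 4428 to 4702 CPM), while its neuron markers were the highest (10043 CPM against 9601 to 9893 CPM). The part of these cell types in the target levels was not tested.

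**Figure D4:**
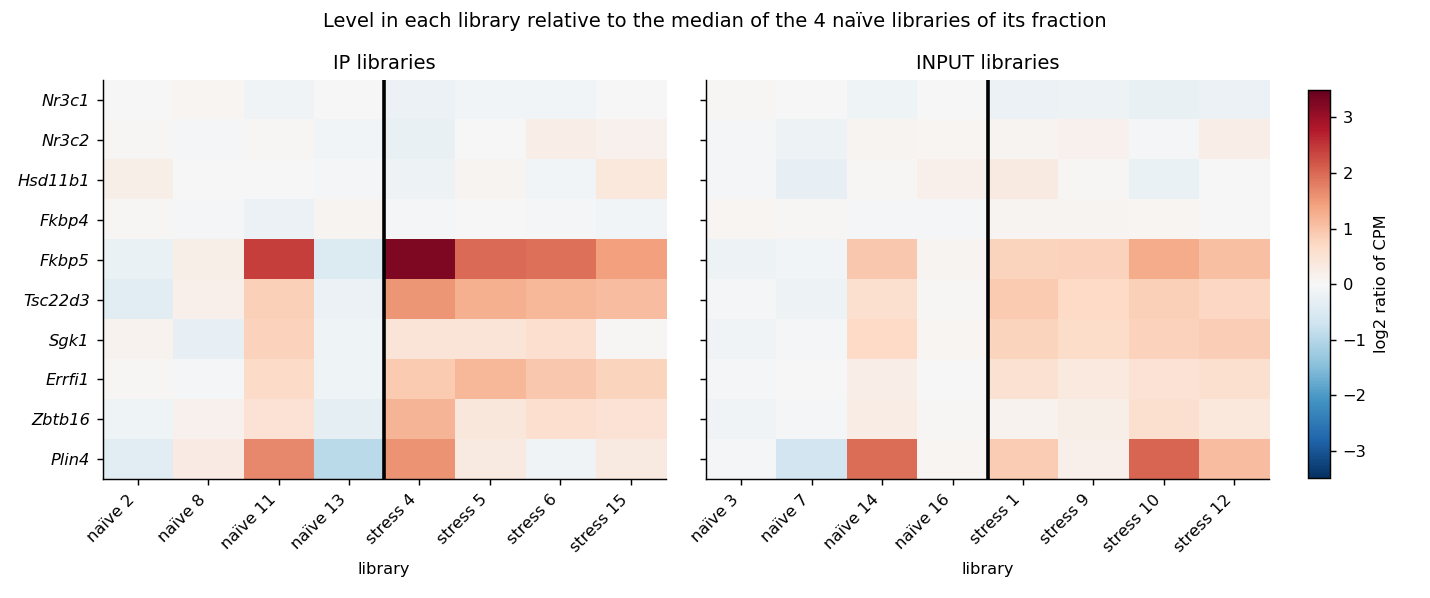
Log2 ratio of each library's CPM to the median of the 4 naïve libraries of its fraction, for the 10 genes in IP (left) and INPUT (right), with naïve and stress libraries parted by a line. Naïve IP 11 and naïve INPUT 14 are red in the 6 targets, as most stress libraries are, while Plin4 in stress IP 6 lies below the naïve median. Stress IP 4 and stress INPUT 10 are the darkest stress columns for Fkbp5 and Plin4.

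Stress libraries also differed among themselves. Stress IP 4 was the highest for Fkbp5, Tsc22d3, Zbtb16 and Plin4 and the lowest for Nr3c1, Nr3c2 and Hsd11b1, and it was the highest for 18.2% and the lowest for 32.2% of all genes. Stress INPUT 10 was the highest for Fkbp5, Zbtb16 and Plin4 and the lowest for Nr3c1, Nr3c2 and Hsd11b1, beside 20.46% and 25.9% of all genes, and stress INPUT 12 was the highest for as many of the 10. Over the 8 IP libraries, the genes whose log2 levels were most like those of Fkbp5 were Tekt4, a tektin of cilia (Pearson's r 0.99), Azin1 (0.99), Mxd4, a partner of MAX (0.98), Klf9, a transcription factor known to respond to glucocorticoids (0.97), and Bcl2l1, an inhibitor of apoptosis (0.97), of 10072 genes with a mean above 5 CPM. Of the 10 genes here, Zbtb16 (r 0.95, rank 19) and Tsc22d3 (r 0.93, rank 28) came closest, and Nr3c1 ran the other way (r −0.85). These values are a description over 8 libraries that share 2 conditions and the spread just given, and carry no test. Azin1, the inhibitor of the antizyme that degrades ornithine decarboxylase, was at 164 to 264 CPM in naïve IP and 212 to 290 CPM in stress IP.

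Other genes of the pathway were read from lists. Of 24 further glucocorticoid-induced genes 23 had a mean above 1 CPM, and Lcn2, named for its low level, did not. In stress IP 6 of the 23 rose and 0 fell past the threshold (0.216% and 0.224% of all genes), with a median log2 fold change of 0.38 beside −0.0036 over all genes. The list was drawn up with earlier results of these data known, so its direction is not independent evidence. Arl4d, a small GTPase of the ARF family, rose most, from 3.71 ± 3.20 to 25.2 ± 6.14 CPM (log2 2.99, limma adjusted p = 0.0065). Irs2, the insulin receptor substrate, rose from 32.9 ± 8.97 to 80.1 ± 12.9 CPM (log2 1.30, limma adjusted p = 0.0049), and Cebpd, a transcription factor, from 5.02 ± 0.691 to 11.3 ± 1.90 CPM (log2 1.15, limma adjusted p = 0.0054). The other 3 were Arrdc2, an arrestin-domain protein (log2 1.45), Nfkbia, the inhibitor of NF-kB (log2 1.14), and Tiparp, a mono-ADP-ribosyltransferase (log2 0.58). Their limma adjusted p ranged from 0.025 to 0.038. Stress and naïve IP libraries did not overlap for 9 of the 23 in the upward and 1 in the downward direction, as for 2.38% and 2.62% of all genes. The count of 6 became 12 without naïve IP 11, 8 without stress IP 15, and 3 without any other single library of the comparison.

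In INPUT, 1 of the 23, Irs2, rose past the threshold (54.4 ± 5.75 to 78.6 ± 5.15 CPM, log2 0.53, limma adjusted p = 0.034), where 0.0368% of all genes did. Stress lay above all naïve libraries for 6 of the 23, as for 1.43% of all genes. The median was 0.34, beside −0.0025 for all genes. Without naïve INPUT 14 the count was 4, without stress INPUT 9 it was 3, and without any other single library it was 0. In naïve mice 16 of the 23 were higher and 5 lower in IP than in INPUT, with a median of 1.50, beside 23.7% and 64% of all genes and a median of −0.64. Naïve IP 11 was the highest naïve IP library for 19 of the 23, beside 21.0% of all genes. Naïve INPUT 14 was the highest naïve INPUT library for 17 of the 23, beside 30.3% of all genes. Both libraries were singled out for high levels of the 6 targets, and the list was drawn up with earlier results known. These counts are therefore a description only.

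**Figure D5:**
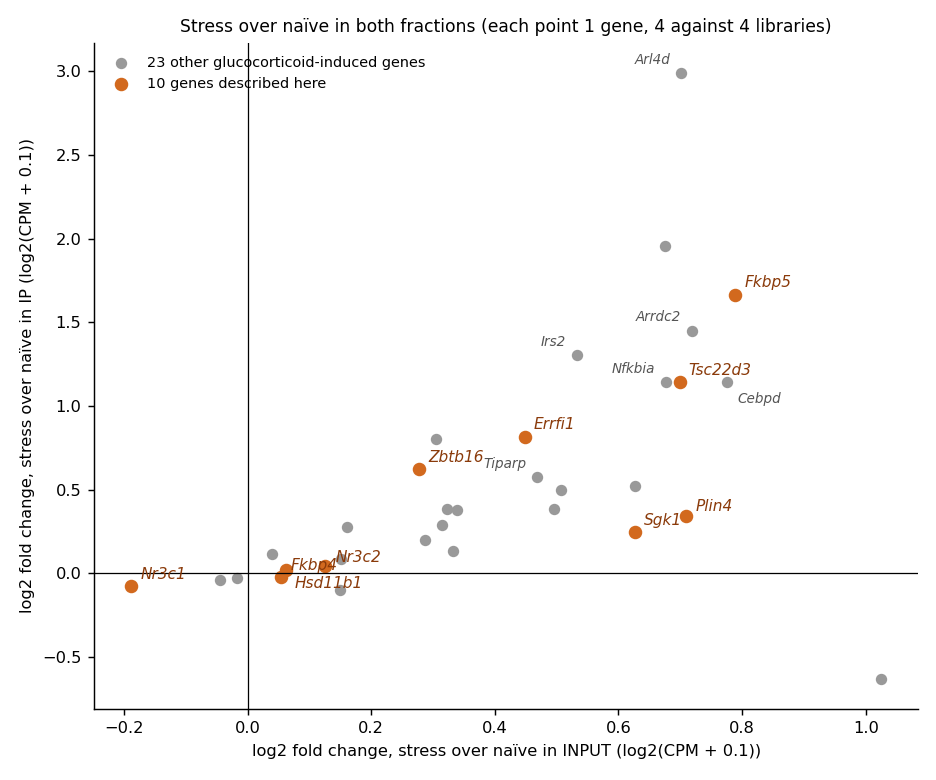
Log2 fold change of stress over naïve in IP (vertical) against INPUT (horizontal) for the 10 genes (named in brown) and 23 other glucocorticoid-induced genes (grey, with the 6 past the threshold in IP named). Tsc22d3 sits among Nfkbia, Arrdc2 and Cebpd, Sgk1 and Plin4 have larger values in INPUT than in IP, and Nr3c1, Nr3c2, Hsd11b1 and Fkbp4 lie near 0 on both axes.

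None of the chaperones and coregulators of the receptor was called after stress. Of 20 listed partners (heat shock proteins, cochaperones, coactivators and corepressors) 0 passed in stress IP and 0 in stress INPUT by limma, with medians of −0.067 and −0.034. Of all genes, 0.216% were called higher and 0.224% lower in IP, and 0.0368% and 0.00737% in INPUT. With shares this low, 0 calls in a list of this size is near the background and no result about its genes. The same holds for the 2 lists below. In naïve mice 3 were higher and 15 lower in IP, where 23.7% of all genes were called higher and 64% lower. The median was −0.51 beside −0.64 for all genes. These shares of the 20 are near the background and are no result about the partners. Of 15 paralogs of the 10 genes, 12 had a mean above 1 CPM, and 0 were called after stress in IP or INPUT, with medians of 0.0037 and −0.042. The 6 tested genes of steroid supply had 0 calls in either comparison. At an unadjusted limma p under 0.05 there were 1 of the partners, 4 of the paralogs and 0 of the genes of steroid supply in IP, and 0, 0 and 2 in INPUT. The same limit was met by 1034 of all 12501 genes tested in IP and 683 of 13577 in INPUT. For the TSC22 family, Tsc22d1 had a log2 fold change of 0.17 (limma adjusted p = 0.54) in stress IP, beside 1.14 for Tsc22d3.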

How the data were processed

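RNA-seq of 16 libraries (4 per group) was used. STAR (mm10) and HTSeq (RefSeq genes, unique reads) gave the counts, and the authors deposited these as log2 CPM for 24060 genes, scaled to each library's own total with no scaling between libraries. The shared constant (0.0118 CPM) was removed, and 100% of values were then whole reads within 0.1 read (16392876 to 25814364 per library). Intervals are for the mean log2 difference and rest on the spread between libraries. No library was identical to another.

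Comparisons used lmFit and eBayes (with trend) of limma 3.58.1 (R 4.3.3). Values entered as log2(CPM + 0.1), genes needed a mean above 1 CPM, and p was adjusted over all of these by Benjamini-Hochberg. Fold changes on this scale understate changes of low genes. An exact two-sided permutation over 70 labelings was run for each of the 10 genes. The fit was tested on simulated data. Exon lengths and positions came from GENCODE M21, and promoter windows from RefSeq. Tables used Python 3.11.15, NumPy 2.4.6, pandas 2.3.3 and SciPy 1.17.1.

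The 10 genes and all lists were chosen with earlier results of these data known. Named are all 10 genes, list genes past the threshold in stress IP, the highest paralog of each family and the 5 genes most like Fkbp5. Alternatives were pseudocounts of 1 and 0.01, no filter, a mean above 5 CPM, median ratio, quantile, limma-voom, array weights, no trend, one model of 16 libraries, a covariate for Xist, and each library left out. Leaving out naïve IP 11 and naïve INPUT 14 together was chosen after seeing the data.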

Additional observations from a re-analysis of the deposited data

Results flagged for a closer look

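Among the 40 groups of 4 libraries (10 genes in 4 groups), 6 held a library whose gap to its nearest neighbour exceeded Dixon's 95% critical share of the group's range, where chance gives about 1 in 20 groups, or 2. The 10 genes share the same libraries, so the groups are not independent and 6 beside 2 is a description only. For Fkbp5, naïve IP 11 was at 39.8 CPM with the others between 5.31 and 8.55, and naïve INPUT 14 at 49.3 CPM with the others between 22.5 and 27.1. For Sgk1, naïve INPUT 14 was at 123 CPM and the others between 70.3 and 79.3. For Plin4, naïve INPUT 14 was at 23.4 CPM with the others between 3.77 and 6.26, and stress IP 4 at 20.0 CPM with the others between 6.16 and 8.33. For Nr3c1, stress INPUT 10 was at 171 CPM and the others between 179 and 180.5. Of the 6, 4 were in naïve IP 11 or naïve INPUT 14, which were singled out for their high levels of these genes.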

How the results depend on the processing

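Precision is set by 4 libraries a group, not by depth. Limma p-values set the difference of group means against the spread between libraries, with variances moderated by a trend over all genes tested. No paired analysis was possible because the labels do not give which IP and INPUT belong to the same mouse and no library numbers are shared between groups. The count of the 10 genes called in stress IP, 1 in the report, was 0 with no filter, with median ratio rescaling, with quantile normalization and with a variance without trend, and 2 with array weights and with all 16 libraries in one model. It ranged from 0 to 3 with a library left out (3 without naïve IP 11, 2 without stress IP 15, 0 without any of the other 6). Where it was 0, the call lost was that of Tsc22d3, whose log2 fold change stayed between 0.99 and 1.17. In stress INPUT the count of 0 became 4 with array weights and ranged from 0 to 4 with a library left out (4 without naïve INPUT 14, 2 without stress INPUT 9). With array weights the log2 fold change of Hsd11b1 changed sign in stress IP (−0.029) and stress INPUT (−0.030). Fkbp4 in IP over INPUT changed sign with median ratio (0.40 naïve, 0.31 stressed) and quantile normalization (0.26 and 0.18). Plin4 changed sign in naïve mice with limma-voom (−0.022) and array weights (−0.046), and in stressed mice with median ratio (0.26) and quantile normalization (0.35), as did Fkbp5 in stressed mice with median ratio (0.025). The rescalings remove the shift of all genes, and the cause of the other changes was not tested. With a library left out, values crossed 0 in stress IP for Nr3c2 (−0.019 to 0.14), Hsd11b1 (−0.088 to 0.093), Fkbp4 (−0.080 to 0.016) and Plin4 (−0.020 to 0.84), and in stress INPUT for Hsd11b1 (−0.030 to 0.15). They also did for Plin4 in naïve IP over INPUT (−0.49 to 0.55) and, in the difference of the stress effects, for Nr3c2 (−0.14 to 0.017), Hsd11b1 (−0.15 to 0.047) and Plin4 (−0.91 to 0.13). Counts in IP over INPUT stayed between 7 and 9 in naïve and 7 and 8 in stressed mice, and the difference of the stress effects had 0 calls throughout.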
